A study of Mus musculus with 14 samples.

Results

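Lung endothelial cells of Cre+ mice were compared with those of control mice. The samples are the 2 arrays whose titles give lung EC and experimental and the 2 whose titles give lung EC and control, that is 4 of the 14 arrays of the study. All mice carried floxed alleles at 3 loci, written Fk1 L/L, Fk2 L/L and Afx L/L, on the FVBn background. The experimental mice were MxCre+ and the control mice MxCre-, so the controls carried the floxed alleles too and differed in the Cre transgene. Fk1, Fk2 and Afx are read here as the forkhead genes Foxo1, Foxo3 and Foxo4. The Mx promoter is switched on by interferon and is active in many cell types, so that it does not restrict Cre to endothelium. How Cre was induced, how the lung cells were isolated, the age and sex of the mice and the number of mice behind each array are not stated in the labels. The p-values therefore measure the spread between arrays, which may be partly technical. The other samples were liver sinusoidal endothelial cells (LSEC; 3 MxCre+ and 3 MxCre- arrays) and thymus cells (2 and 2), from mice with the same 2 genotypes. Total RNA was hybridised to the Mouse Genome 430 2.0 array of Affymetrix, which reads 1 level per probe set.

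FoxO proteins are transcription factors that insulin and growth factor signalling drives out of the nucleus through the kinase Akt. In the nucleus they activate genes of cell cycle arrest, cell death, stress resistance and fuel use. In endothelium they are known as brakes on vessel growth and as regulators of vessel stability, and Angpt2, whose product antagonises the receptor Tie2, is a known target of Foxo1. The lung comparison addresses which transcripts differ when the floxed genes are exposed to Cre in the endothelium of the lung. All levels below are log2 values after quantile normalization, where a difference of 1 is 2-fold, and all differences are Cre+ minus control. Of 18193 genes on the array with a single-symbol probe set, 13035 were bright enough in some tissue to be tested, and each was read on its brightest such probe set. Adjusted p-values are from limma with Benjamini-Hochberg adjustment over these genes, and a gene passed at an adjusted p under 0.05.

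The 4 lung arrays had medians between 6.87 and 6.88 as deposited. The 2 Cre+ arrays correlated across probe sets at 0.983 and the 2 control arrays at 0.987, and a Cre+ array correlated with a control array at 0.975 to 0.985. The ranges overlap, so that some arrays of different genotype were as alike as arrays of the same one.

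Endothelial genes were read in the lung samples, which also held RNA of other lung cells. No array of whole lung is among the samples, so enrichment for endothelium cannot be read from these levels. Cdh5, which encodes VE-cadherin of endothelial junctions, averaged 10.56 in Cre+ and 11.05 in control lung samples, against 12.32 in control LSEC and 6.30 in control thymus. Gpihbp1, the capillary anchor of lipoprotein lipase, averaged 10.16 in Cre+ and 10.37 in control lung samples. The liver sinusoid genes Stab2 and Oit3 were at 6.21 and 5.16 in Cre+ lung samples and at 5.98 and 5.06 in control lung samples, compared with 11.69 and 11.51 in control LSEC. The surfactant gene Sftpc of alveolar type 2 cells averaged 12.28 ± 0.44 in Cre+ and 12.10 in control lung samples (SD for the Cre+ arrays, n = 2 each). Scgb1a1, the secretoglobin of airway club cells, averaged 11.82 in Cre+ and 11.65 in control samples. The fibrillar collagen gene Col1a2 averaged 12.78 in Cre+ and 12.86 in control samples, and the alveolar macrophage gene Chil3 averaged 13.08 and 13.13. The epithelial and collagen genes stood far lower in control LSEC, at 6.61 for Sftpc, 3.23 for Scgb1a1 and 8.37 for Col1a2. In bulk samples, fewer cells of a type and less RNA per cell cannot be told apart.

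**Figure D1:**
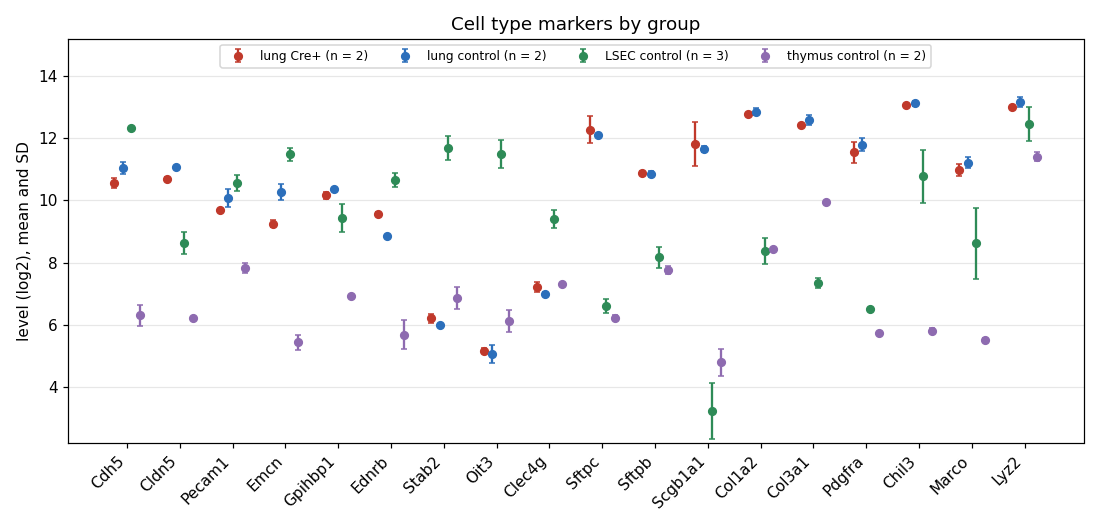
Mean log2 level (y axis) of 18 marker genes (x axis) in Cre+ lung, control lung, control LSEC and control thymus samples; bars are SD, and levels are to be compared within a gene only. Both lung groups hold endothelial, epithelial, collagen and macrophage RNA, and Stab2 and Oit3 of liver sinusoids stand between 5.06 and 6.21 in them.

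The floxed genes were lower in Cre+ lung samples on 5 of 9 probe sets at an unadjusted p under 0.05, and higher on 1. None passed after adjustment over all 34945 probe sets with 1 symbol, of which 0.0114% passed and 4.35% had an unadjusted p under 0.05. Foxo1 on probe set 1416982_at had levels of 7.84 and 7.46 in Cre+ samples and 8.82 and 8.60 in control samples, a difference of -1.06 (limma adjusted p = 0.22). On 1416983_s_at, Foxo1 had 7.15 and 6.85 in Cre+ and 8.36 and 8.21 in control samples, a difference of -1.29 (limma adjusted p = 0.644). On 1416981_at the difference was smaller, with 8.49 and 8.24 in Cre+ and 8.86 and 8.90 in control samples. On all 3 of these Foxo1 probe sets both Cre+ arrays lay under both control arrays. The other Foxo1 probe set, 1456529_at, was dim, with 4.96 and 4.33 in Cre+ and 5.06 and 4.99 in control samples. Foxo4 on 1456753_at had 6.72 and 6.02 in Cre+ and 7.46 and 7.49 in control samples, a difference of -1.10 (limma adjusted p = 0.558). The second Foxo4 probe set, 1422149_at, gave -0.61 at levels of 5.63 and 6.48 in Cre+ and 6.82 and 6.52 in control samples. The Foxo3 probe set 1434831_a_at stood higher, with 8.64 and 8.46 in Cre+ and 8.26 and 8.24 in control samples (0.30, limma adjusted p of 1). The 2 other Foxo3 probe sets, 1434832_at and 1450236_at, gave 0.10 and 0.01. Foxo1 RNA was thus still read at levels of 7.46 to 8.49 in Cre+ samples on its 2 brighter probe sets, and no probe set of Foxo3 was lower with a p under 0.05. Where the probe sets lie relative to the deleted exons is not given in the files, and one that lies outside them does not report recombination.

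**Figure D2:**
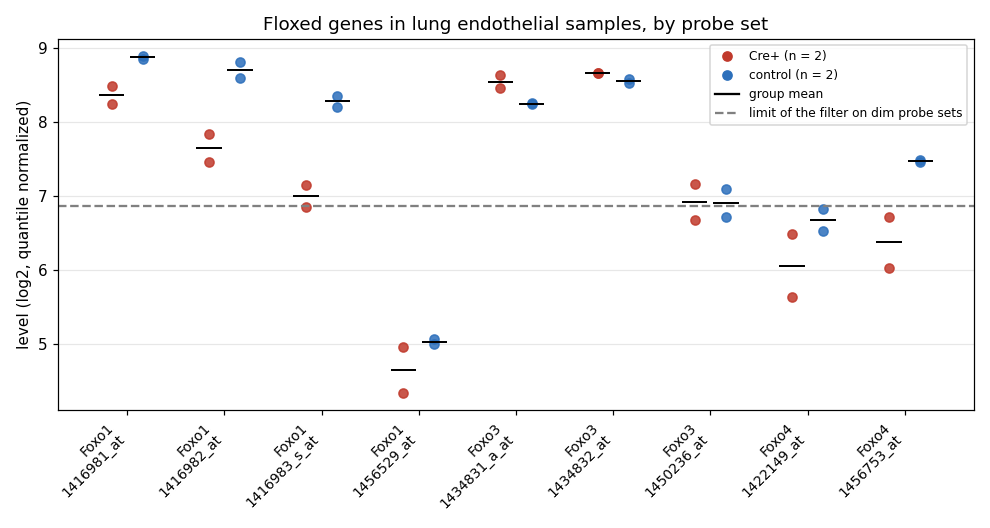
Log2 level (y axis) of each probe set of Foxo1, Foxo3 and Foxo4 (x axis) in the 2 Cre+ and 2 control lung arrays, with group means as bars and the level needed for testing, 6.87, as a dashed line. The Cre+ points lie under the control points on the 4 Foxo1 probe sets and on both of Foxo4, and above them on 2 of the 3 of Foxo3.

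A set of 14 genes passed in Cre+ against control lung samples, 3 higher (Cap1, Ptprb and Gm34303) and 11 lower, which is 0.107% of the genes tested (0.023% higher and 0.0844% lower). They included ligands and receptors of vessel growth and tone, which fell (Npy, Aplnr, Pgf and Bmp2), and a phosphatase gene of the Tie2 system, Ptprb, which rose. The others were genes of enzymes, a channel subunit, a GTPase and an actin regulator. For every one of the 14, both Cre+ arrays lay on 1 side of both control arrays, as they did for 38.4% of all genes tested. Without any 1 lung array, which leaves that group with 1 array assumed to vary like the others, 2 to 4 genes passed. Npy and Gm34303 passed in each of these 4 fits, and the other 12 genes passed in none of them.

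The sequences just upstream of 3 of these genes are shown. Npy had the largest fall and Cap1 the largest rise. Gimap4 was the 1 gene with an entry whose upstream sequence held a motif that was sought, TGTTTTC. The sequences are the 250 bases before the annotated start, from RefSeq on GRCm38.p6, read 5′ to 3′ on the strand of the gene. They lie at chr6:49822460-49822709 (+) for Npy, chr4:122886077-122886326 (-) for Cap1 and chr6:48684328-48684577 (+) for Gimap4. Capitals mark the motif TGTTTTC.
Npy: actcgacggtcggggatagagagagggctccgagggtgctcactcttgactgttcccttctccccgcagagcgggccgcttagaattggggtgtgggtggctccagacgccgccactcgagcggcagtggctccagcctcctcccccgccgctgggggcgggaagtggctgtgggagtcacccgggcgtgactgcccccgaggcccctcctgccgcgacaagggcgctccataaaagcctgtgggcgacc
Cap1: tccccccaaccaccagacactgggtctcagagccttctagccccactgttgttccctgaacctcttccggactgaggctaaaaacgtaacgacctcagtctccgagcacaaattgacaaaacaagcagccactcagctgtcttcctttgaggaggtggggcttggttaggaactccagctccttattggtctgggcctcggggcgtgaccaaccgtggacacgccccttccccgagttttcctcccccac
Gimap4: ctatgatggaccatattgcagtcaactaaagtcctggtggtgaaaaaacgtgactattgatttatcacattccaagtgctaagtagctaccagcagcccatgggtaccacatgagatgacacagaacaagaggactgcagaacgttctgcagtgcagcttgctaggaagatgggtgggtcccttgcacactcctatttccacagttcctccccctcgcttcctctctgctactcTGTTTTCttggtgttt
Entries were found for 8 of the 14 genes, with 10 start sites in all. The FoxO core TGTTTAC, sought on both strands, was in 0 of these 10 windows and in 3.17% of all 32851 windows. A related sequence, TGTTTTC, was in 1 of 10 windows and in 6.33% of all windows. The 1 was that of Gimap4, with its first base 16 bases upstream of the start. Other forms of FoxO motif were not sought. A match here describes letters only, and says nothing of binding.

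Npy encodes neuropeptide Y, a peptide best known from neurons that constricts vessels. Its levels were 6.70 and 7.63 in Cre+ samples and 10.48 and 10.22 in control samples, a fall of 9.08-fold (log2 fold change -3.18, 95% interval -3.78 to -2.58, limma adjusted p = 0.00115). The Cre+ arrays differed from each other by more than the control arrays did, and both stood far under the control arrays. Aplnr encodes the G protein-coupled receptor for apelin, which guides growing vessels. It stood at 6.26 and 6.14 in Cre+ samples, under the level needed for testing, and at 8.76 and 8.47 in control samples (-2.41, limma adjusted p = 0.0228). Its second probe set, 1423037_at, gave -2.81. Pgf encodes placental growth factor, a ligand of the VEGF receptor Flt1. Its levels were 6.64 and 7.0 in Cre+ and 8.76 and 8.18 in control samples (-1.65, limma adjusted p = 0.0391). Bmp2, the gene of a bone morphogenetic protein, had 7.62 and 7.19 in Cre+ and 9.15 and 8.84 in control samples (-1.59, limma adjusted p = 0.0234). Ptprb encodes VE-PTP, the tyrosine phosphatase of endothelium that acts on Tie2 and VE-cadherin. It rose, with 9.34 and 9.63 in Cre+ and 8.36 and 8.16 in control samples (1.23, limma adjusted p = 0.0391). A second Ptprb probe set, 1427486_at, gave 1.17, and a dim one, 1453908_at, gave -0.35.

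Among genes of enzymes and membrane proteins, Cyp4b1, a cytochrome P450 gene strongly expressed in lung, had 8.24 and 8.25 in Cre+ and 9.77 and 9.65 in control samples (-1.46, limma adjusted p = 0.0201). Kcne3, which encodes an accessory subunit of potassium channels, had 6.84 and 7.0 in Cre+ and 8.59 and 8.10 in control samples (-1.42, limma adjusted p = 0.0391). Plpp3 encodes a phosphatase that degrades lysophosphatidic acid outside the cell. It was the brightest of the genes that fell and had the smallest change, with 10.40 and 10.06 in Cre+ and 10.88 and 11.17 in control samples (-0.79, limma adjusted p = 0.0484). Its second probe set, 1448908_at, gave -0.84. Gimap4, of a GTPase family first described in lymphocytes, had 7.95 and 7.74 in Cre+ and 9.28 and 9.06 in control samples (-1.33, limma adjusted p = 0.0407). On 1424374_at, its other probe set, it gave -0.68. The ubiquitin ligase gene Rnf125 had 8.70 and 8.75 in Cre+ and 9.83 and 9.85 in control samples (-1.12, limma adjusted p = 0.0382). Arrays of the same genotype were close together for this gene. They were also close for Ndufs5, which encodes a subunit of respiratory complex I: 8.72 and 8.69 in Cre+ against 9.78 and 9.76 in control samples (-1.06, limma adjusted p = 0.0391). C730049O14Rik, a transcript with no named function in the annotation, had 8.70 and 8.64 in Cre+ and 9.87 and 9.80 in control samples (-1.16, limma adjusted p = 0.0273).

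Cap1, which encodes a cyclase-associated protein that recycles actin monomers, had the largest change of all genes tested, 10.3-fold. Its levels were 11.22 and 11.32 in Cre+ and 7.81 and 8.0 in control samples (log2 fold change 3.37, 95% interval 2.38 to 4.36, limma adjusted p = 0.0234). The second probe set, 1417462_at, gave 3.05. Gm34303, annotated as a pseudogene, had 7.89 and 7.93 in Cre+ and 6.88 and 6.77 in control samples (1.08, limma adjusted p = 0.00115). In the gene order of the annotation Gm34303 lies directly next to Foxo1. Of the 14 genes, 9 were read by a single probe set, so that Npy, Pgf, Bmp2 and Gm34303 among others have no second reading. All 5 genes with several probe sets had at least 2 that differed in the same direction with an unadjusted p under 0.05.

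**Figure D3:**
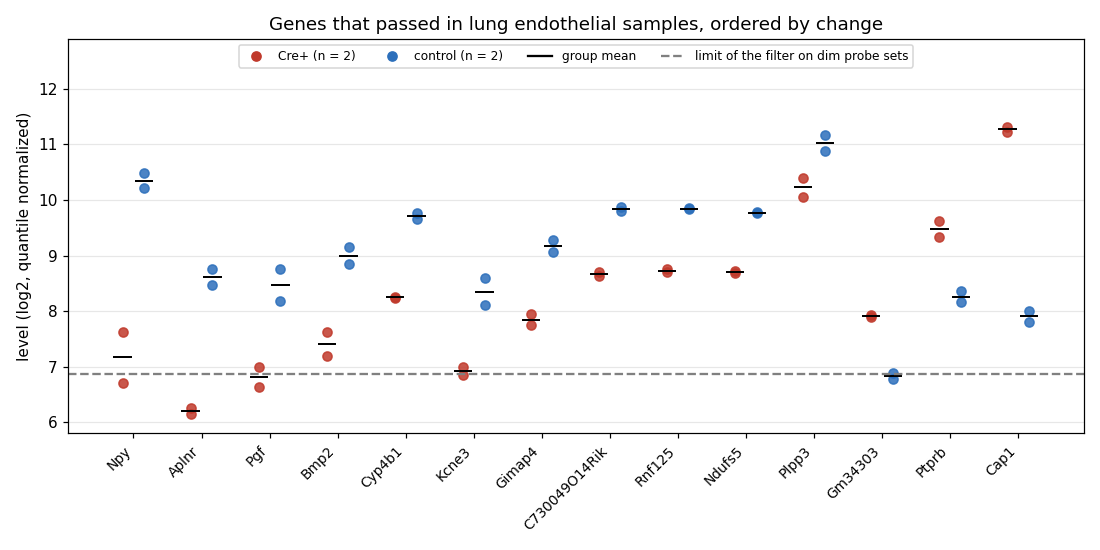
Log2 level (y axis) of the 14 genes that passed (x axis, ordered by log2 fold change) in the 2 Cre+ and 2 control lung arrays, with group means as bars and the level needed for testing as a dashed line. The Cre+ and control points do not overlap for any of them. Both Cre+ points of Aplnr, at 6.26 and 6.14, lie under the line. So do single Cre+ points of Npy (6.7), Pgf (6.64) and Kcne3 (6.84) and a single control point of Gm34303 (6.77).

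Some of the 14 genes lie on the same chromosome. Of the 13 with a place in the gene order of GRCm38.p6, 4 (Cap1, Cyp4b1, Ndufs5 and Plpp3) lie on 1 chromosome that holds 6.06% of the placed genes tested. Cap1 and Ndufs5, which changed in opposite directions, are separated by 28 annotated genes. Plpp3 and Cyp4b1 are separated by 193. In the stretch between the outermost of these 4, with the 4 left out, 4 of 128 genes tested had an unadjusted limma p under 0.01 (3.12%). On the rest of that chromosome 10 of 656 did (1.52%), and over all placed genes tested 1.34%. At an unadjusted limma p under 0.05 the shares were 7.81% in the stretch and 5.64% on the rest. The chromosome and the stretch were chosen by where the passing genes lie, so that these shares are no test. The 4 genes of the stretch with a p under 0.01 were all lower and none passed: Usp24 (-0.82), Ssbp3 (-0.56), 2610528J11Rik (-0.47) and Mycl (-0.68), the last a Myc family gene 3 places from Cap1. Usp24, a ubiquitin protease gene and the next tested gene to Plpp3, had 7.09 and 7.10 in Cre+ and 7.99 and 7.84 in control lung samples (limma adjusted p = 0.189), and gave -0.75 in LSEC and -1.24 in thymus. Usp24, Ssbp3 and 2610528J11Rik were named after their values were seen. Gimap4 and Npy also share a chromosome, with 40 genes between them. Among the tested genes near Gimap4, Gimap1, Gimap6, Gimap8 and Gimap9 gave -0.37, -0.35, -0.29 and -0.42 without passing. Gimap3 gave -0.11, Gimap5 0.01 and Gimap7 0.26. These Gimap neighbours were named after their values were seen.

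Several of the largest differences did not pass. Esm1, the gene of the endothelial proteoglycan endocan, had 7.26 and 6.98 in Cre+ and 9.79 and 9.43 in control samples (-2.49, limma adjusted p = 0.561). Cxcr4, the receptor gene of the chemokine Cxcl12, had 8.36 and 8.19 in Cre+ and 10.46 and 10.33 in control samples (-2.12, limma adjusted p = 0.0999). Kcnj8, which encodes the pore of a vascular ATP-sensitive potassium channel, had 7.38 and 7.11 in Cre+ and 9.08 and 9.20 in control samples (-1.89, limma adjusted p = 0.318). In all 3 the lung arrays of a genotype lay close together. Angpt2 was just outside the threshold, with 8.13 and 8.63 in Cre+ and 10.20 and 9.61 in control samples (-1.53, limma adjusted p = 0.052). Edn1, the gene of the vasoconstrictor endothelin 1, had 6.37 and 6.80 in Cre+ and 8.27 and 7.59 in control samples (-1.35, limma adjusted p = 0.0999). Sema3g, a semaphorin gene of arterial endothelium, and Sh3gl3, which encodes an endophilin, gave -1.32 and -1.26, and AI506816 gave -1.58.

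On the side of higher levels, Vwf, which encodes the von Willebrand factor that tethers platelets, had 9.70 and 9.98 in Cre+ and 7.96 and 7.51 in control samples (2.11, limma adjusted p = 0.121). Hpgd, whose product inactivates prostaglandins, had 8.69 and 8.21 in Cre+ and 6.95 and 7.03 in control samples (1.46, limma adjusted p = 0.0999). Other large rises were taken from genes without overlap of arrays that reached the level needed for testing in a lung group. Those without a pass were Ninj2 (1.53), the coagulation factor gene F13a1 (1.47), Rasd1 (1.22), Pglyrp1 (1.21), and the macrophage genes Trem2 (1.22) and Arg1 (1.05). The dendritic cell gene Ccr7 gave 1.36 at levels of 3.51 and 3.84 in Cre+ and 2.57 and 2.05 in control samples, far under that level. With weights estimated for each array, 54 genes passed, and Angpt2, Cxcr4, Edn1, Esm1, Kcnj8, Sema3g, Vwf and Hpgd were among them. With the replicate number as a block 0 passed in limma, and 467 genes had an unadjusted p under 0.05.

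Genes of vessel growth were compared through lists, each described by counts beside those of all genes tested, of which 4.56% had an unadjusted limma p under 0.05 (2.1% higher and 2.45% lower) and whose median difference was 0.02. Among 14 apelin and tip cell genes 1 passed, Aplnr, and 7 were lower and 1 higher at an unadjusted p under 0.05, with a median of -0.38. The mean level of that list was 8.94 and 8.97 in Cre+ arrays and 9.75 and 9.52 in control arrays. Besides Esm1 and Cxcr4, the Notch ligand gene Dll4 gave -0.77, the basement membrane gene Nid2 -0.70 and the adhesion receptor gene Mcam -0.74, none of which passed. Among 10 VEGF ligand and receptor genes Pgf passed, 2 were lower at an unadjusted p under 0.05 and the median was -0.23. The 7 angiopoietin and Tie genes held the rise of Ptprb and the lower value of Angpt2, with a median of -0.17. Of 16 Notch pathway genes 4 were lower at an unadjusted p under 0.05, among them the receptor gene Notch4 (-0.75) and the target gene Hey1 (-0.58), and none passed; the median was -0.04. Of 13 Eph, ephrin, semaphorin and plexin genes 3 were lower in the same sense, including the semaphorin receptor gene Plxnd1 (-0.81), and none passed.

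Pan-endothelial marker genes were mostly lower in Cre+ samples, and none passed. Of 20 tested, 6 were lower and 1 higher at an unadjusted limma p under 0.05, and the median was -0.33. Their mean level was 9.26 and 9.32 in Cre+ arrays and 9.68 and 9.40 in control arrays, and the arrays of the 2 genotypes did not overlap for 13 lower and 3 higher members. Sox18, a transcription factor gene of vessel development, had 9.07 and 9.35 in Cre+ and 10.49 and 10.09 in control samples (-1.08, limma adjusted p = 0.217). The guidance receptor gene Robo4 gave -1.06, the sialomucin gene Emcn -1.03 and Cdh5 -0.49, while Vwf gave 2.11. Of 14 endothelial junction genes 10 were lower and 0 higher with no overlap of arrays, 3 were lower at an unadjusted p under 0.05, and the median was -0.23. Of 28 endothelial transcription factor genes 5 were lower and 1 higher at an unadjusted p under 0.05; the one above was Gata2 (0.51), and Lmo2, the gene of a partner protein of Gata factors, gave -0.50. Over all genes tested, 16.6% were lower and 21.8% higher with no overlap of arrays. The part that the endothelial share of the RNA has in these values was not tested.

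Lung capillary markers went both ways. Of 17 tested Aplnr passed, 4 were lower and 2 higher at an unadjusted limma p under 0.05, and the median was -0.01. The endothelin receptor gene Ednrb, a marker of capillary endothelium in the lung, had 9.55 and 9.61 in Cre+ and 8.89 and 8.83 in control samples (0.72, limma adjusted p = 0.561), and Hpgd stood on the same side. Among 13 vascular tone genes none passed, and 3 were lower and 1 higher at an unadjusted p under 0.05. Those below included Edn1 and Ece1 (-0.64), the gene of the enzyme that releases endothelin 1, and the one above was Ednrb. Of 23 BMP and TGF-beta genes only Bmp2 reached an unadjusted p under 0.05. Likewise Ndufs5 stood alone among 33 complex I genes, whose median was 0.07, and Cap1 among 16 actin turnover genes, whose median was 0.01. Of the complex I genes, 17 were higher and 3 lower with no overlap of arrays. Over all genes tested, 21.8% were higher and 16.6% lower in this way. Of 7 potassium channel genes Kcne3 passed and Kcnj8 was also lower at an unadjusted p under 0.05. Among 28 matrix genes none passed; the protease gene Adamts4 gave -0.93, and Fbln5, the gene of an elastic fibre protein, gave 0.90.

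Markers of the other main lung cells gave no low p-values, though several macrophage genes stood higher in Cre+ samples. Of 18 lung epithelial, 18 fibroblast and mural and 16 macrophage and monocyte genes, none passed and none had an unadjusted limma p under 0.05 in either direction. The epithelial list had mean levels of 9.48 and 9.30 in Cre+ and 9.32 and 9.14 in control arrays, with a median difference of 0.16. The fibroblast and mural list had 9.67 and 9.43 in Cre+ and 9.64 and 9.70 in control arrays, with a median of -0.16. The macrophage list had 10.42 and 10.51 in Cre+ and 10.25 and 10.37 in control arrays, with a median of 0.10. In the epithelial and the fibroblast and mural lists the arrays of the genotypes overlapped, and in the macrophage list both Cre+ arrays were higher. Of the 16 macrophage genes, 8 were higher and 2 lower with no overlap of arrays. These counts were 1 higher and 1 lower in the epithelial list, and 2 higher and 4 lower in the fibroblast and mural list. The higher macrophage genes included the complement genes C1qa (0.56), C1qb (0.59) and C1qc (0.54), the adhesion receptor gene Itgam (0.51) and the growth factor receptor gene Csf1r (0.45). The p-values rest on a spread shared by all tissues. For C1qa the SD was 1.19 in control LSEC, and 0.21 in Cre+ and 0.05 in control lung arrays. The absence of low p-values therefore does not show equal levels in lung. The part of these cells in the results above was not tested. Of 8 mast cell genes tested Gata2 was higher and Kit (-0.90), a receptor gene that endothelium also expresses, was lower at an unadjusted p under 0.05, and none passed. No tested member of any list stood at the floor of 0 in a lung array.

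Known FoxO target genes did not pass in lung. Of 33 tested, 0 were higher and 3 lower at an unadjusted limma p under 0.05, with a median of -0.09. The arrays of the genotypes did not overlap for 13 lower and 5 higher members, beside 16.6% lower and 21.8% higher of all genes tested. Gadd45a, a growth arrest gene, had 8.74 and 8.62 in Cre+ and 9.31 and 9.31 in control samples (-0.63, limma adjusted p = 0.561). The autophagy genes Depp1 and Gabarapl1 gave -0.56 and -0.26. In LSEC 14 of the 33 passed lower and 2 higher, with a median of -0.45. Of all 13035 genes tested, 424 passed lower and 366 higher in LSEC. Cdkn1b, the gene of the cell cycle inhibitor p27, gave -0.15 in lung (95% interval -0.48 to 0.18), and the flow-responsive transcription factor gene Klf2 gave -0.04 (95% interval -0.56 to 0.49). Lists of growth and stress gave no low p-values: no member of 15 MCM helicase, 20 cell division, 20 immediate early, 19 interferon response, 18 fuel use, 20 antioxidant or 14 receptor kinase feedback genes had an unadjusted p under 0.05 in lung. The MCM and immediate early medians were 0.04 and -0.06 in lung, compared with 0.43 and -0.51 in LSEC, where 8 members of the MCM list passed higher and 8 of the immediate early list lower. The difference between tissues was not tested for a list as a whole.

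**Figure D4:**
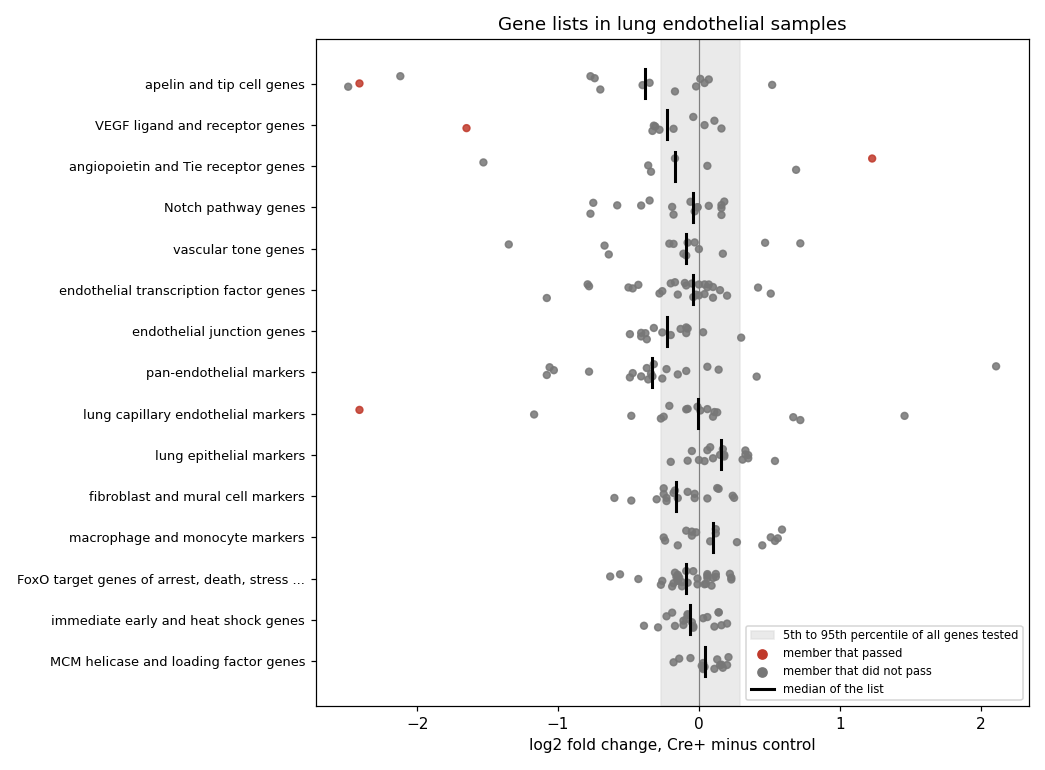
Log2 fold change, Cre+ minus control (x axis), of each tested member of 15 gene lists (y axis) in lung samples, with list medians as bars, members that passed in red and the 5th to 95th percentile of all genes tested as a grey band. The apelin and tip cell list and the pan-endothelial list have medians of -0.38 and -0.33. The epithelial, macrophage and MCM lists have medians of 0.16, 0.1 and 0.04.

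The lung effect was then set against that in LSEC and thymus, with a test of the difference itself. In LSEC 790 genes passed (6.06%), and in thymus 54 (0.414%). Of the 14 genes that passed in lung, 11 also passed in LSEC in the same direction, which is 78.6% of the lung genes and 1.39% of the LSEC genes. The exceptions were Aplnr (LSEC -0.35, limma adjusted p = 0.502), Ptprb (LSEC 0.15, limma adjusted p = 0.63) and Ndufs5 (LSEC 0.05, limma adjusted p = 0.865). Of the 14, Gm34303 alone passed in thymus, with 3.28, while Cap1 gave 2.15 there (limma adjusted p = 0.0699). Over the 790 LSEC genes, 538 differed in the same direction in lung (68.1%), compared with 53.4% of all genes tested. The median difference in lung was -0.12 for the 424 that fell in LSEC and 0.05 for the 366 that rose there. On several probe sets the floxed genes differed less in lung. Foxo1 gave -1.29 in lung and -3.56 in LSEC on 1416983_s_at, and -1.06 and -2.10 on 1416982_at. Foxo4 gave -1.10 in lung and -2.15 in LSEC on 1456753_at, but -0.61 and -0.10 on 1422149_at. Foxo3 on 1434832_at gave 0.10 in lung and -0.53 in LSEC. On the brightest probe set of each gene the lung minus LSEC difference did not pass. It was 0.42 for Foxo1, 1.04 for Foxo4 and 0.63 for Foxo3 (limma adjusted p = 0.515, 0.261 and 0.0605). For Foxo1 that probe set was 1416981_at, with -0.51 in lung and -0.93 in LSEC. No test of the difference is given here for the other Foxo1 probe sets. Whether these values bear on the other genes was not tested. Across the 790 genes that passed in LSEC the differences in the 2 endothelia correlated at 0.41, and across all genes tested at 0.18. Genes are not independent replicates.

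The difference between the lung and LSEC effects passed for 80 genes, or 0.614% of those tested, 43 with a higher value in lung (0.33%) and 37 with a lower one (0.284%). Without 1 lung array the count was 4 to 29. Npy fell more in lung than in LSEC, where it averaged 7.96 in Cre+ and 9.29 in control samples (difference -1.86, limma adjusted p = 0.0449). For Ndufs5 the LSEC levels were 9.67 in Cre+ and 9.62 in control samples (difference -1.11, limma adjusted p = 0.041). The difference of Aplnr (-2.07, limma adjusted p = 0.0467) says little of LSEC, because Aplnr stood at 4.10 in Cre+ and 4.44 in control LSEC, where a fall could not be read. The differences of Ptprb (1.07, limma adjusted p = 0.0808) and Cap1 (1.36, limma adjusted p = 0.49) did not pass. Cyp4b1 fell in both endothelia and less in lung, with -1.46 in lung and -2.72 in LSEC (difference 1.25, limma adjusted p = 0.041). Bmp2, Kcne3 and Gimap4 had nearly equal values in the 2 tissues, -1.59, -1.42 and -1.33 in lung and -1.60, -1.56 and -1.28 in LSEC.

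Among the differences that passed, the 6 largest in each direction were all of genes that passed in LSEC and did not pass in lung. Lyve1, the hyaluronan receptor gene of sinusoidal and lymphatic endothelium, averaged 11.05 ± 0.40 in Cre+ and 11.14 ± 0.16 in control lung samples (SD, n = 2 each), while it fell by 3.45 in LSEC (difference 3.37, limma adjusted p = 0.00218). Spry2, a feedback inhibitor gene of receptor tyrosine kinases, averaged 9.99 ± 0.01 in Cre+ and 10.08 ± 0.21 in control lung samples (SD, n = 2 each; -0.09, 95% interval -0.43 to 0.25), and fell by 1.47 in LSEC (difference 1.38, limma adjusted p = 0.0139). Angpt2 gave -1.53 in lung, where it did not pass, and -3.84 in LSEC (difference 2.31, limma adjusted p = 0.0111). The differences of Pdk4, a kinase gene that spares glucose, of the monooxygenase gene Fmo1, of the transporter gene Slc10a6 and of the semaphorin gene Sema3d were 2.49, 3.35, 2.17 and 3.42. In the other direction, the cytokine gene Il6 differed by -4.50, the tetraspanin gene Cd9 by -2.15, Mcam by -2.75, Foxc2 by -2.18 and Plac8 by -2.19. Sema3g differed by -2.28 at LSEC levels of 5.18 in Cre+ and 4.21 in control samples, both under the level needed for testing. Il6 averaged 6.60 in Cre+ and 7.18 in control lung samples, and 8.25 in Cre+ and 4.32 in control LSEC.

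**Figure D5:**
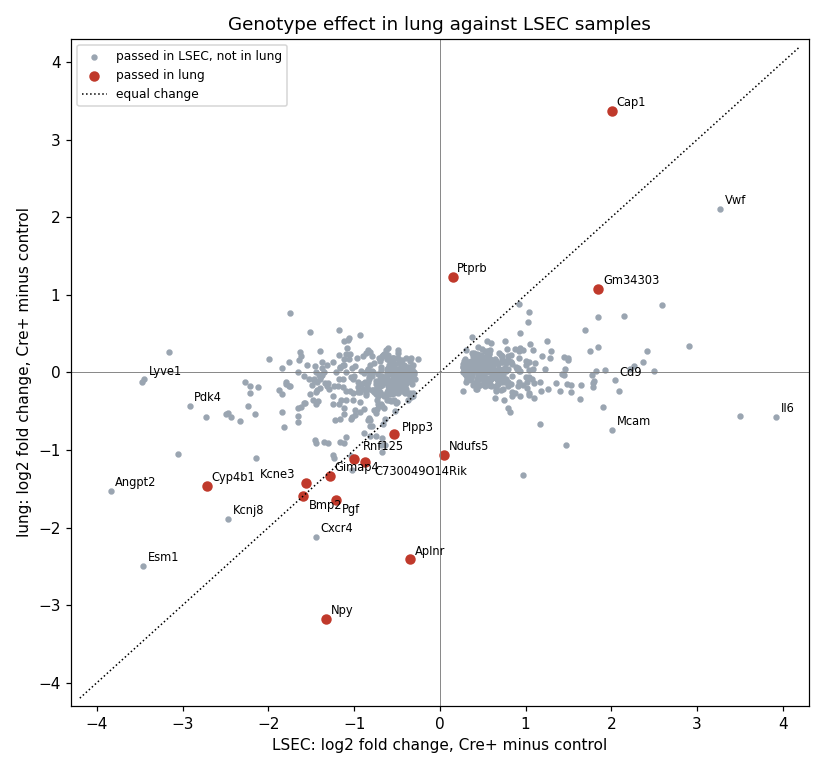
Log2 fold change, Cre+ minus control, in lung (y axis) and LSEC (x axis) for every gene that passed in either; genes that passed in lung are large and red, and the dotted line marks equal change. Most points were chosen for their LSEC value and lie near 0 on the lung axis. Cap1, Npy and Aplnr lie farther out on the lung axis than on the LSEC axis. The difference between the 2 effects passed for Npy and Aplnr and did not pass for Cap1.

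Against thymus, the difference of effects passed for 4 genes (0.0307%). They were Epha2, an ephrin receptor gene with 0.20 in lung and 4.41 in thymus (difference -4.21, limma adjusted p = 0.000128), and Npy (difference -3.30, limma adjusted p = 0.0103). Npy stood at 5.35 in Cre+ and 5.23 in control thymus, where a fall could not be read. The others were Gm34303 (difference -2.20, limma adjusted p = 5.15e-05) and the MHC class II gene H2-Eb1, with 0.19 in lung and -2.81 in thymus (difference 2.99, limma adjusted p = 0.00742). H2-Eb1 stood at 6.14 in Cre+ and 5.96 in control lung samples, also under the level needed for testing. The difference of Gm34303 passed against both tissues, and its rise was 1.08 in lung, 1.85 in LSEC and 3.28 in thymus.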

How the data were processed

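Each sample's total RNA was read on 1 array. The values analysed are the deposited table of log2 levels per probe set; the log base is inferred from their range (0 to 13.8), and how the authors summarized and normalized the probes is not given in the sources used here. On a lung array, 261 to 290 values stand at 0. Array medians spread over 0.282, so the 14 arrays were brought to common quantiles with limma 3.58.1 (R 4.3.3). Of 45101 probe sets, 34945 carried 1 symbol in the annotation supplied, 932 several and 9160 none, and 64 were controls; 34741 matched a gene ID of the GRCm38.p6 table.

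A gene was read on its brightest probe set (mean over all arrays) and tested where its mean in any tissue was at least 6.87, which is percentile 40 of the probe sets. A single linear model of 6 groups used all 14 arrays (lmFit, eBayes; 8 residual and 3.21 prior degrees of freedom), so the spread is shared by the groups. It gave Cre+ minus control in lung and the differences of this effect from those in LSEC and thymus, with p-values adjusted by Benjamini-Hochberg within each contrast at 0.05. Every single-symbol probe set was also fitted without the filter for the FoxO genes and for second probe sets. The number of arrays limits the precision.

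The members and gene lists were chosen with earlier results of these data known. Genes were named by rule: the FoxO genes, Spry2, Klf2 and Cdkn1b, every passing gene, the 8 largest differences in each direction without overlap among the rest whose higher lung mean reached 6.87, the passing or else the 3 lowest-p members of each list, the highest members of each marker list, the largest differences from LSEC (6 each way) and thymus (4 each way), and neighbours with a p under 0.01. A check of the test on simulated data gave each gene the same spread in all tissues. It therefore does not cover genes whose spread differs between tissues, such as C1qa. Alternatives were the values as deposited, median centring, other filters and probe set rules, trend and robust, array weights, a 2-fold limit, subsets of arrays, leaving out each lung array, and a replicate block. Same-numbered Cre+ and control arrays deviated with a correlation of -0.24 across genes. With 2 arrays a group, this value cannot show whether the numbers pair the samples. Median normalized SD was 0.0847 in Cre+ and 0.0753 in control lung arrays.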

Additional observations from a re-analysis of the deposited data

Results flagged for a closer look

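For 21 of the genes named, the effect in lung differed from that in LSEC by the test of the difference itself, and for 4 it differed from that in thymus. The differences are lung minus the other tissue, on the log2 scale.

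The lung value was lower for Il6 (-4.50), Mcam (-2.75), Sema3g (-2.28), Plac8 (-2.19), Foxc2 (-2.18), Cd9 (-2.15), Aplnr (-2.07), Npy (-1.86), Ndufs5 (-1.11) and Gm34303 (-0.76) than in LSEC. It was higher for Nid2 (1.13), Cyp4b1 (1.25), Spry2 (1.38), Wnt2 (1.41), Gadd45a (1.69), Slc10a6 (2.17), Angpt2 (2.31), Pdk4 (2.49), Fmo1 (3.35), Lyve1 (3.37) and Sema3d (3.42). The limma adjusted p-values ran from 0.00218 for Lyve1 to 0.0467 for Aplnr. Mcam, an adhesion receptor gene of vessel walls, gave -0.74 in lung and 2.01 in LSEC, and Wnt2, a Wnt ligand gene, gave 0.48 in lung and -0.93 in LSEC, so their values had opposite signs, without a pass in lung. Against thymus the differences were those of Epha2 (-4.21), Npy (-3.30), Gm34303 (-2.20) and H2-Eb1 (2.99). A change could hardly be read in tissues where both groups stood under 6.87, which were LSEC for Aplnr and Sema3g, thymus for Npy and lung for H2-Eb1.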

How the results depend on the processing

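All 14 genes that passed in lung kept their direction in every setting that gave them a value. Settings that drop or weight arrays could not have reversed it, because both Cre+ arrays lay on 1 side of both control arrays. The count of 14 was 2 without the filter, 22 over every named probe set, 54 with array weights, 4 with only the 4 lung arrays or only the 10 endothelial arrays, and 2 to 4 without 1 lung array. With the replicate block it was 0 in limma (with 467 genes at an unadjusted p under 0.05), and with the lung numbers crossed, chosen after seeing the data, it was 3. The 80 differences from LSEC became 30 without the filter, 125 with trend and robust, 168 with array weights, 38 with only the endothelial arrays, 1 with the replicate block, 15 with it crossed, and 4 to 29 without 1 lung array. The 4 differences from thymus became 12 with the 60th percentile filter, 13 with the mean of all probe sets, 7 over every named probe set, 20 with trend and robust, 7 with array weights, 2 with the replicate block and 2 with it crossed. The causes were not tested. Leaving out 1 lung array moved small lung values across 0: Spry2 (-0.24 to 0.06), Klf2 (-0.11 to 0.04), Foxc2 (-0.16 to 0.24), Plac8 (0.00 to 0.16; 0.00 as deposited), Lyve1 (-0.37 to 0.19), Fmo1 (-0.40 to 0.14), Epha2 (-0.08 to 0.47) and H2-Eb1 (-0.23 to 0.60). The count of lists with a median below 0, 29 of 46, was 34 as deposited or with median centring and 23 to 30 without 1 lung array. The 5 FoxO probe sets lower at an unadjusted p under 0.05 were 4 or 5 throughout. Values of genes at or under 6.87 in 1 group, such as Aplnr, Pgf and Gm34303, are of uncertain size.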

Other observations

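A few members of lists not described above stood apart in lung without passing. The insulin-like growth factor binding protein gene Igfbp3 had 10.99 and 11.11 in Cre+ and 12.08 and 11.87 in control samples (-0.93, limma adjusted p of 1), among 20 insulin and IGF genes with a median of 0.02. In the list of 15 leukocyte adhesion and cytokine genes, Lrg1, which encodes a glycoprotein that acts in TGF-beta signalling of vessels, had 9.89 and 10.20 in Cre+ and 9.20 and 9.42 in control samples (0.73, limma adjusted p of 1). Of 18 Bcl2 family and death receptor genes, Pmaip1, which encodes the death effector Noxa, had 7.20 and 7.13 in Cre+ and 8.07 and 7.82 in control samples (-0.78), and Hrk, another such effector gene, gave 0.35. Both Pmaip1 and Hrk had groups that did not overlap and neither passed.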
